A study of Mus musculus with 6 samples.

Results

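The genes described here encode the proteins of the mitochondrial ribosome, and they were taken as every non-control probe whose gene name begins with Mrpl or Mrps followed by a digit. This gave 126 probes of 41163, for 76 genes of the 16389 tested, with 47 large subunit (Mrpl) genes on 79 probes and 29 small subunit (Mrps) genes on 47 probes. They were compared in CD8+ T cells sorted from the liver of 2 groups of female mice, 13 to 14 weeks old, all on the C57BL/6 background. The TG group carried dnTGFβRII, a dominant negative form of the type II receptor for transforming growth factor beta, and the TGC3 group carried dnTGFβRII and in addition lacked the chemokine receptor CXCR3 (CXCR3-/-). Both groups therefore carry the transgene, whose published form is driven by a CD4 promoter and blunts TGF-β signalling in T cells, and no group without it was compared. There were 3 arrays a group, each a single-colour Agilent array of total RNA, and beyond the sample codes nothing says that each came from a separate mouse, so the p-values may cover technical spread alone. The stated question of the study was what CXCR3 does in the activation and proliferation of CD8+ T cells.

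The mitochondrial ribosome translates the few messenger RNAs that the mitochondrial genome encodes, all for core subunits of the respiratory chain and the ATP synthase. Its RNAs are made in the mitochondrion, but all of its proteins are encoded in the nucleus, made on cytosolic ribosomes and imported. In T cells that leave the resting state, building mitochondria and their translation machinery is part of the metabolic change that goes with growth and division. The large subunit forms the peptide bond and the exit tunnel, and the small subunit binds the messenger RNA and reads its codons.

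The promoters of these genes are known for sites of NRF1, of ETS family factors such as GABPA and of YY1, and E-boxes are the sites of MYC with MAX. In RefSeq promoters of GRCm38.p6, each running from 250 bases before to 50 after the gene start, 67 of the 76 genes were matched and 28 of them held at least 1 of 4 motifs searched on both strands. The NRF1 motif GCGCATGCG stood in 7 of the 67 genes (10.4%, against 2.61% of coding genes and 1.95% of all genes in the same table). The ETS motif CCGGAAGT stood in 12 (17.9%, against 5.69% and 4.31%), and the YY1 motif AAGATGGCG in 8 (11.9%, against 2.14% and 1.64%). The E-box CACGTG stood in 5 (7.46%, against 8.91% and 8.09%). A match describes letters and is not evidence that a factor bound there. Overlapping matches in a gene counted once, and no match of one motif overlapped that of another, although an E-box and an ETS motif lie end to end in Mrps18c. The stretches of 4 genes are shown because Mrpl17 and Mrps18c had the largest positive changes below and Mrpl3 and Mrpl36 show the other motifs. Each is read 5′ to 3′ on the gene's strand, with a motif in capitals, the reverse complement in Mrpl36.
Mrpl17, NRF1, chr7:105811088-105811147, minus strand: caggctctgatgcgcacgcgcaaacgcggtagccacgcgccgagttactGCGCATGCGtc
Mrpl3, ETS, chr9:105053208-105053267, plus strand: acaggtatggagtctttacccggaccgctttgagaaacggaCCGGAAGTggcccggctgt
Mrpl36, YY1, chr13:73330949-73331008, plus strand: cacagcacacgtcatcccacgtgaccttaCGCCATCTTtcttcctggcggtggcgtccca
Mrps18c, E-box, chr5:100798571-100798630, plus strand: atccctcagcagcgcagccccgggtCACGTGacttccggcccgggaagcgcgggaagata

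All but 3 of the 126 probes stood well above background on each of the 6 arrays. The 3 exceptions, for Mrpl11, Mrpl47 and Mrpl52, were not well above background on any array, while another probe of each of those genes was. All 76 genes were therefore measured on every array, each by its brightest kept probe, whose mean intensity ran from 324.3 for Mrps27 to 46849.1 for Mrpl33, a range that also reflects the probes themselves. Intensities below are background-corrected array intensities, and log2 values are scaled to each array's 75th percentile, so that 0 is the 75th percentile of that array. A change is the mean of TGC3 minus the mean of TG on this log2 scale. In bulk RNA, fewer cells of a type and less RNA per cell cannot be told apart.

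On each array 58.86% to 63.78% of probes were well above background, and the 75th percentile lay between 561.4 and 623.0 intensity units. Cxcr3 itself fell by 11.35 on the log2 scale in TGC3 (SE 0.12, limma adjusted p = 9.64e-07, n = 3 and 3). All 8 CD8 T cell markers stood well above background on every array, against 0 of 7 hepatocyte markers. The changes of all 8 CD8 T cell markers were below 0, with a median of -0.17, and Cd3d and Cd3g were called lower. Also below 0 were 57 of the 76 genes described here, beside 5424 of the 8194 genes above the median signal. The summed intensity of 6 neutrophil markers was 955 to 4799 on the TGC3 arrays and 68 to 100 on the TG arrays, with 1 of the 6 above background on all arrays and Elane on none. The sum of 9 macrophage and Kupffer cell markers was 715 to 2006 against 455 to 568. Of 5 measured B cell markers 3 were called higher and 1 lower, and the summed intensity of the 7 listed was 3748 to 3895 in TGC3 against 3548 to 4670 in TG, an overlap. All 5 NK cell markers stood above background on every array, with 0 called and sums of 37468 to 81814 in TGC3 against 41045 to 57726 in TG, an overlap. Of 4 measured dendritic cell markers 2 were called higher and 0 lower, and the sums of the 6 listed overlapped. Endothelial marker sums were 417 to 445 against 351 to 377, and erythroid sums 49 to 93 against 34 to 40. The part of all these markers in the values below was not tested. All TGC3 arrays lay on 1 slide in 1 scan run and all TG arrays on another, so slide and genotype cannot be told apart.

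Scaled to each array's 75th percentile, the mitochondrial ribosomal protein genes as a whole stayed close to their TG level in TGC3 cells. Of the 76, only Mrpl17 was called higher and only Mrpl49 was called lower at an adjusted p under 0.05, where 16.6% of all genes were called higher and 9.45% lower (26.0% in either direction). Among the genes above the median signal, which take in 75 of these 76, the called shares were 7.33% higher and 11.9% lower (19.3% in either direction). The median change of the 76 was -0.06, with 57 of them below 0, beside -0.01 for all genes tested and -0.07 for the genes above the median signal. Below 0 were 8420 of the 16389 genes tested and 5424 of the 8194 brighter genes. The changes of the 76 ran from -0.37 for Mrps5 to 0.35 for Mrpl17, with an SD of 0.12, against an SD of 0.49 over all genes and 0.31 over the brighter genes.

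**Figure D1:**
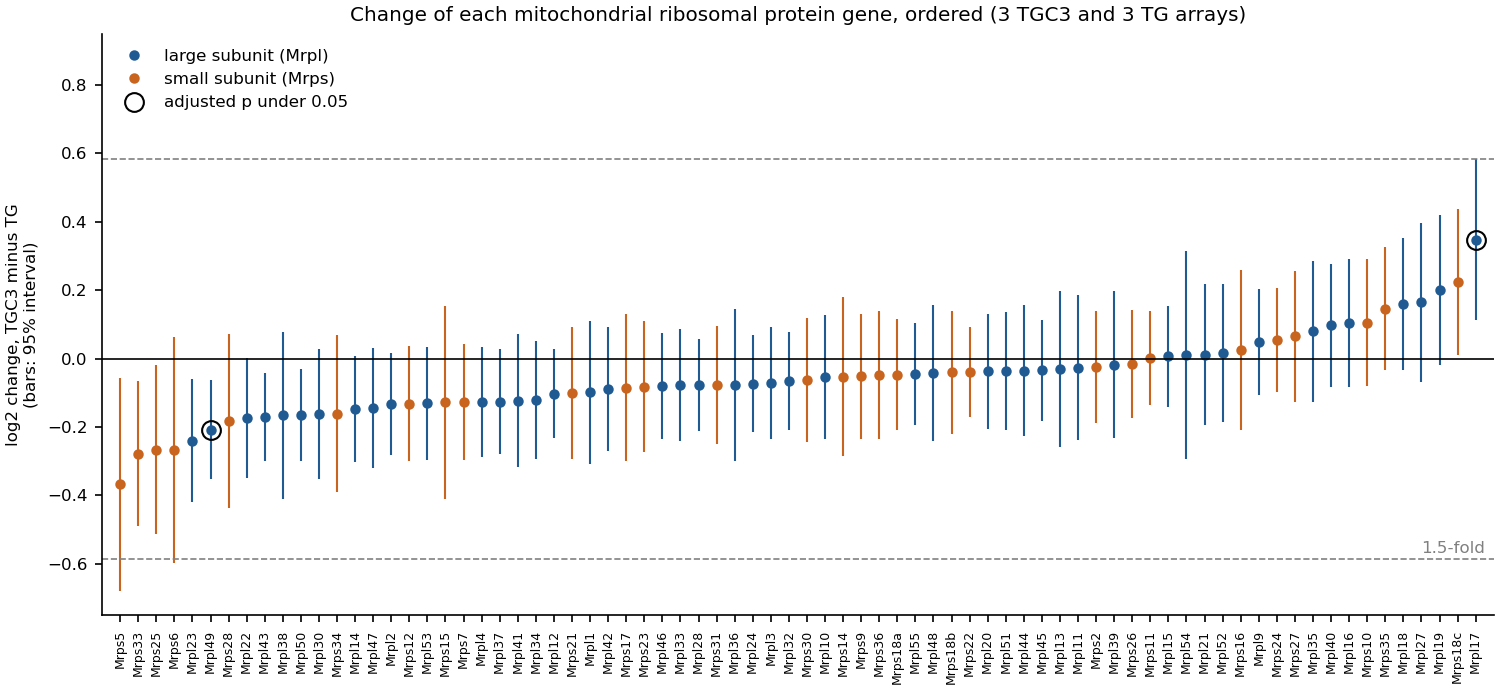
Log2 change, TGC3 minus TG, of the 76 mitochondrial ribosomal protein genes in order of size, with the 95% interval from limma as a bar, blue for the 47 large and orange for the 29 small subunit genes. Circles mark Mrpl17 and Mrpl49, and 74 of the 76 bars lie within the dashed lines at 1.5-fold.

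The intervals show how precise each change was, given the spread between arrays of a group under this scaling alone. They do not hold differences between the slides or between scalings, so they do not bound what could have been missed. The 95% interval lay inside a 1.5-fold change in either direction for 74 of the 76 genes, and the exceptions were Mrps5 and Mrps6. Over all genes 64.8% had an interval inside 1.5-fold, and over the brighter genes 86.2%. The median standard error of the 76 was 0.07, and the change that would have passed the threshold had a median of 0.26 on the log2 scale (1.195-fold) and ran from 0.19 to 0.47. These values are not limits of detection. In simulated data 34 of 67 genes changed 1.5-fold were found, but those were drawn from all genes tested, whose median standard error was 0.09. There 16189 genes were left unchanged, which makes the threshold stricter, so that share is not a rate for the 76. At an unadjusted p under 0.05, 9 of the 76 passed, 2 higher and 7 lower, against 40% of all genes tested and 34.3% of the brighter ones.

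Mrpl17 encodes a conserved protein of the large subunit near the exit of the peptide tunnel. Its probe, on minus-strand chr7:112958345-112958404 of mm9, read 1617.6, 1934.6 and 1571.1 intensity units on the TGC3 arrays and 1234.1, 1217.0 and 1401.3 on the TG arrays. On the scaled log2 scale these were 1.45, 1.66 and 1.33 against 1.14, 1.09 and 1.18, so that every TGC3 array stood above every TG array. The change was 0.35 (SE 0.10, 1.27-fold, limma adjusted p = 0.0444, n = 3 and 3). It passed under 7 of 12 other settings, which count quantile normalization and the nearly identical deposited values separately, and, with an array left out, only without TGC3 replicate 3; without each of the other 5 arrays its adjusted p lay above the threshold, up to 0.127.

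Mrpl49 encodes a large subunit protein with no counterpart in bacteria. Its probe, on minus-strand chr19:6053882-6053941 of mm9, read 1.95, 1.88 and 2.00 in TGC3 against 2.13, 2.15 and 2.17 in TG on the scaled log2 scale. The 3 TG arrays lay within a narrow range above every TGC3 array. The change was -0.21 (SE 0.06, 1.16-fold, limma adjusted p = 0.0484, n = 3 and 3). It passed under 5 of 12 other settings and under none of the 6 fits without an array, whose adjusted p ran from 0.0747 to 0.129, and its sign turned under both normexp background corrections (0.32 and 0.02). Fitted probe by probe, the same probe did not pass (limma adjusted p = 0.0573 over all probes). The other probes of Mrpl49, in the same transcript, changed by -0.10 (limma adjusted p = 0.368) and 0.01 (limma adjusted p = 0.934), with overlapping groups. The lower call of Mrpl49 therefore rests on its brightest probe.

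The scaling decides how many of these small differences count. With each array centred on its median in place of its 75th percentile, the median of all genes moved from -0.01 to -0.18, 25 of the 76 genes were called lower and 0 higher, and the share of calls over all genes that were higher went from 63.7% to 27.4%. Both scalings subtract 1 constant from each array, so the distance of the 76 from the median of all genes, -0.06, is the same under both by construction. That distance was 0.01 with quantile normalization, 0.34 with normexp background correction and -0.19 without the filter on dim probes. With quantile normalization the median of the 76 was -0.0003 and Mrpl17 and Mrps18c were called higher with none lower. Their median was -0.24 with median centring, with 73 of the 76 below 0, and 0.28 with normexp, with 6 of the 76 below 0.

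The arrays of a group did not move as 1 block. The mean scaled log2 value over the 76 genes was 2.62, 2.68 and 2.58 on the TGC3 arrays and 2.66, 2.64 and 2.75 on the TG arrays, so the groups overlapped. TG replicate 3 held the highest value of the 6 arrays for 43 of the 76 genes, and TGC3 replicate 3 the lowest for 41. TGC3 replicate 2 was the highest of the 3 TGC3 arrays for 55 genes. The median change was -0.03 without TG replicate 3 and -0.04 without TGC3 replicate 3, against -0.10 without TGC3 replicate 2. Counted array by array, 22 genes had every TGC3 array below every TG array and 3 had every TGC3 array above, beside 22.4% and 24.3% of all genes and 32.1% and 13.5% of the brighter genes.

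The large and small subunits differed little from each other in their change. The 47 Mrpl genes had a median change of -0.07 with 1 called in each direction, and the 29 Mrps genes a median of -0.05 with none called, 4 of the 29 passing an unadjusted p under 0.05. The mean of the large subunit genes minus that of the small subunit genes was 0.525, 0.533 and 0.514 on the TGC3 arrays and 0.505, 0.507 and 0.497 on the TG arrays. The groups did not overlap, and their means were 0.524 ± 0.009 (SD, n = 3) and 0.503 ± 0.005 (SD, n = 3), a difference of 0.021. In means the large subunit changed by -0.05 and the small subunit by -0.07, while the medians are ordered the other way, at a large minus small difference of -0.018. That difference of medians took either sign over the other settings, from -0.027 to 0.044.

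**Figure D2:**
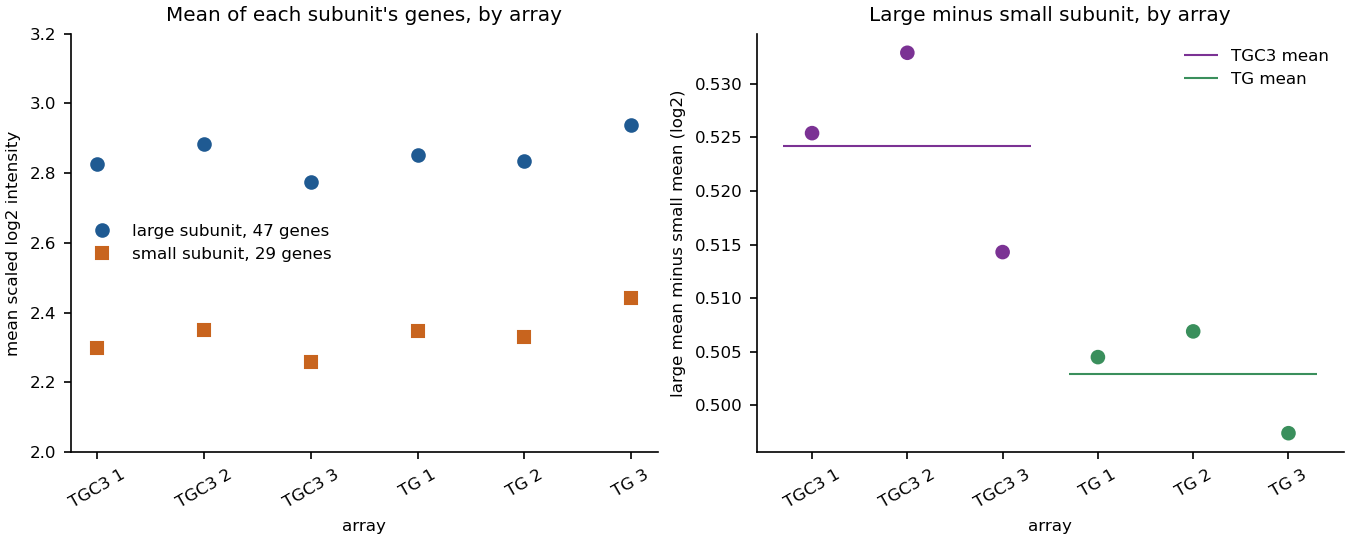
Left, the mean scaled log2 intensity of the 47 large and 29 small subunit genes on each array. Right, the large mean minus the small mean on each array, from 0.514 to 0.533 on the TGC3 arrays and from 0.497 to 0.507 on the TG arrays, with lines at the group means; the right axis does not start at 0.

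Gene names and place in the ribosome do not match for a few members. Mrps30 and Mrps18a, named for the small subunit, sit in the large subunit of the mammalian mitochondrial ribosome, and Mrps36 is now known as a subunit of the 2-oxoglutarate dehydrogenase complex. Mrps30 had a change of -0.06, Mrps18a of -0.05 and Mrps36 of -0.05, and none passed. Placed by structure, 49 large and 26 small subunit genes had medians of -0.07 and -0.06, and large minus small was 0.570 ± 0.006 (SD, n = 3) in TGC3 and 0.547 ± 0.003 (SD, n = 3) in TG. Of the large subunit proteins by structure, the 30 with bacterial counterparts had a median change of -0.07 and the 19 without of -0.06. Of the small subunit proteins the 15 conserved ones stood at -0.05 and the 11 mitochondrial ones at -0.08.

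Among large subunit proteins at the peptidyl transferase centre, Mrpl2, Mrpl3, Mrpl16 and Mrpl27, changes ran from -0.13 for Mrpl2 to 0.17 for Mrpl27, and none passed. Mrpl3, a core protein beside the catalytic site, read 3.28, 3.39 and 3.23 in TGC3 against 3.33, 3.38 and 3.39 in TG on the scaled log2 scale. These overlapped, with a change of -0.07 (SE 0.07, limma adjusted p = 0.473). The functional groups used here for naming were drawn up after the values were seen.

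The stalk of the large subunit recruits the elongation factors, and its 5 members stayed between -0.13 (Mrpl53) and 0.01 (Mrpl54), with 0 passing. Mrpl12 encodes the stalk protein that is present in several copies and that has also been described as a partner of the mitochondrial RNA polymerase. It read 3.46, 3.46 and 3.43 in TGC3 against 3.53, 3.54 and 3.57 in TG on the scaled log2 scale. Every TGC3 array lay below every TG array, by a change of -0.10 (SE 0.05, limma adjusted p = 0.208) whose 95% interval ran from -0.23 to 0.03. Mrpl11, at the stalk base, overlapped between groups at -0.03 (SE 0.09, limma adjusted p = 0.843).

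At the exit of the peptide tunnel, 8 members ran from -0.24 for Mrpl23 to 0.35 for Mrpl17, and 7 of the 8 were below 0. Mrpl23, part of the conserved protein ring around the exit and singled out after its values were seen, read 4.74, 4.84 and 4.66 in TGC3 against 4.96, 5.06 and 4.94 in TG. The groups did not overlap, and its change of -0.24 (SE 0.07, limma adjusted p = 0.0597) lay just outside the threshold. Mrpl45, which holds the ribosome at the inner membrane, stood at -0.03, and its neighbours Mrpl39 and Mrpl44 at -0.02 and -0.03. In the central protuberance 6 members ran from -0.17 for Mrpl38 to 0.16 for Mrpl18, with 3 below 0 and none passing.

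In the small subunit, Mrps12, the decoding centre protein known from streptomycin resistance in bacteria, read 3.64, 3.63 and 3.67 in TGC3 against 3.80, 3.68 and 3.86 in TG. All TGC3 arrays lay below the TG arrays, closest to TG replicate 2, and the change was -0.13 (SE 0.07, limma adjusted p = 0.206). The 8 members of the head ran from -0.28 for Mrps33 to 0.15 for Mrps35, and the 3 of the foot from -0.16 for Mrps34 to 0.06 for Mrps27, with none passing. Mrps18b, of the foot, stood at -0.04 (SE 0.07, limma adjusted p = 0.719), and Mrps2 at -0.02 (SE 0.07, limma adjusted p = 0.817).

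Mrps18a, Mrps18b and Mrps18c are 3 mammalian relatives of a single bacterial protein, and Mrps18c is the one that takes its place. The relatives parted in sign: Mrps18c read 3.49, 3.59 and 3.35 in TGC3 against 3.25, 3.15 and 3.34 in TG. Its groups did not overlap, and its change of 0.22 (SE 0.09, limma adjusted p = 0.110) passed only with quantile normalization (adjusted p = 0.0385) and with the deposited values (adjusted p = 0.0367), which are nearly the same setting. Whether the 3 relatives differ from each other was not tested.

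The largest decrease belonged to Mrps5, a conserved protein at the messenger RNA entry, which is named for its values and whose reduced dose is known to lengthen life in worms. It read 1.54, 2.02 and 1.69 in TGC3 against 2.09, 2.17 and 2.10 in TG. TGC3 replicate 2 lay near the TG arrays and the other TGC3 arrays well below them, and the change was -0.37 (SE 0.13, limma adjusted p = 0.0838). That change came from the brightest probe of Mrps5, and its other probes changed by -0.18, -0.11 and -0.06, all with overlapping groups. Mrps25, also singled out for its values, had a change of -0.27 (SE 0.10, limma adjusted p = 0.104). The other probe of Mrps25 changed by -0.08 with overlapping groups. Without TGC3 replicate 2, Mrps5, Mrps33 and Mrpl23 were called lower.

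Several genes were read by more than 1 probe, and their probes did not always tell the same story. Of the 33 genes with more than 1 kept probe, 20 had probes whose changes lay within 0.2 of each other and 4 had probes more than 0.5 apart, with a median range of 0.15. Fitted probe by probe, 6 of the kept probes were called higher and 2 lower, beside 13.7% and 8.37% of all probes. Of the 11 kept probes on transcript models outside the curated RefSeq messenger RNAs 3 were called, and of the 112 others 5 were. In 6 genes, Mrpl1, Mrpl17, Mrpl33, Mrps2, Mrps9 and Mrps33, a probe was called while another pointed the other way, and the difference between the probes of a gene was not tested.

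Mrps33, a small protein of the small subunit head, showed the widest split. Of its 3 probes, 1 lies across a splice junction of NM_001010930 and 1 across a junction of NM_010270, both on the minus strand of chromosome 6 in mm9 and sharing 33 bases. The 30 bases about each junction are shown because they are what tells these transcripts apart, with the beginning of the shared stretch in capitals.
NM_001010930 probe, chr6:39752512-39755513: aaagtccatgaaagtGAGATGAGCATCAGG
NM_010270 probe, chr6:39752503-39755388: tccttggcctttacaGAGATGAGCATCAGG
The NM_001010930 probe read 0.47, 0.57 and 0.36 in TGC3 against -0.17, -0.16 and -0.01 in TG, with every TGC3 array above every TG array. Its change was 0.58 (SE 0.08, 1.49-fold, limma adjusted p = 0.00741 over all probes). The NM_010270 junction probe read 2.94, 3.06 and 2.83 in TGC3 against 3.13, 3.01 and 3.14 in TG, an overlap with a change of -0.15 (SE 0.08, limma adjusted p = 0.239). The third probe, downstream in NM_010270 and the one that reads the gene above, read 4.69, 4.82 and 4.53 against 4.99, 4.92 and 4.97, a change of -0.28 (SE 0.09, limma adjusted p = 0.0686 over all probes) whose groups did not overlap. Of the 3 probes, then, the one on NM_001010930 rose and the other 2 had negative changes.

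Mrpl33 and Mrps2 had a similar pattern on transcript models from Ensembl. The Mrpl33 probe on ENSMUST00000154286 changed by 0.67 (SE 0.09, 1.59-fold, limma adjusted p = 0.0067), with 28.4, 34.0 and 27.8 intensity units in TGC3 against 17.6, 17.6 and 18.9 in TG, and the groups did not overlap. It lies 40.8 kb from the other Mrpl33 probe in mm9, further than the 8.69 kb that RefSeq gives the whole gene in GRCm38.p6, and the other probe changed by -0.08. For Mrps2, the probe on ENSMUST00000146332 rose by 0.45 (SE 0.08, limma adjusted p = 0.0129) and a probe within NM_080452 by 0.32 (SE 0.06, limma adjusted p = 0.0159), and both had every TGC3 array above every TG array. The brightest Mrps2 probe, in the same NM_080452, changed by -0.02 with overlapping groups. On signal, the rising Mrpl33 probe stood at percentile 7.08 of the kept probes, and those of Mrps2 at 31.6 and 51.8. Of the 4097 dimmest genes tested, 29.0% were called higher and 5.32% lower, with a median change of 0.28. Of the next 4097 by signal, 22.7% were called higher and 8.59% lower, with a median of 0.06. Whether the rising probes rose more than others of like signal was not tested.

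Mrps9, Mrpl1 and Mrpl17 split within curated transcripts. A junction probe of Mrps9 rose by 0.27 (SE 0.07, limma adjusted p = 0.0359), and another junction probe of the same NM_023514 changed by -0.05. A dim probe of Mrpl1, with every TGC3 array below every TG array, fell by 0.35 on the log2 scale (SE 0.09, limma adjusted p = 0.0335), beside -0.10 and 0.23 for the other probes. The second probe of Mrpl17, at 61.4 to 87.2 intensity units in TGC3 and 68.2 to 85.1 in TG, had a change of -0.21 (SE 0.17, limma adjusted p = 0.405) with overlapping groups. The gene's higher call therefore rests on its brighter probe, and with the probes of the gene averaged its change was 0.07 (limma adjusted p = 0.717). Under the same averaging Mrpl33 (0.30) and Mrps2 (0.25) were called higher and Mrps15 was called lower.

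**Figure D3:**
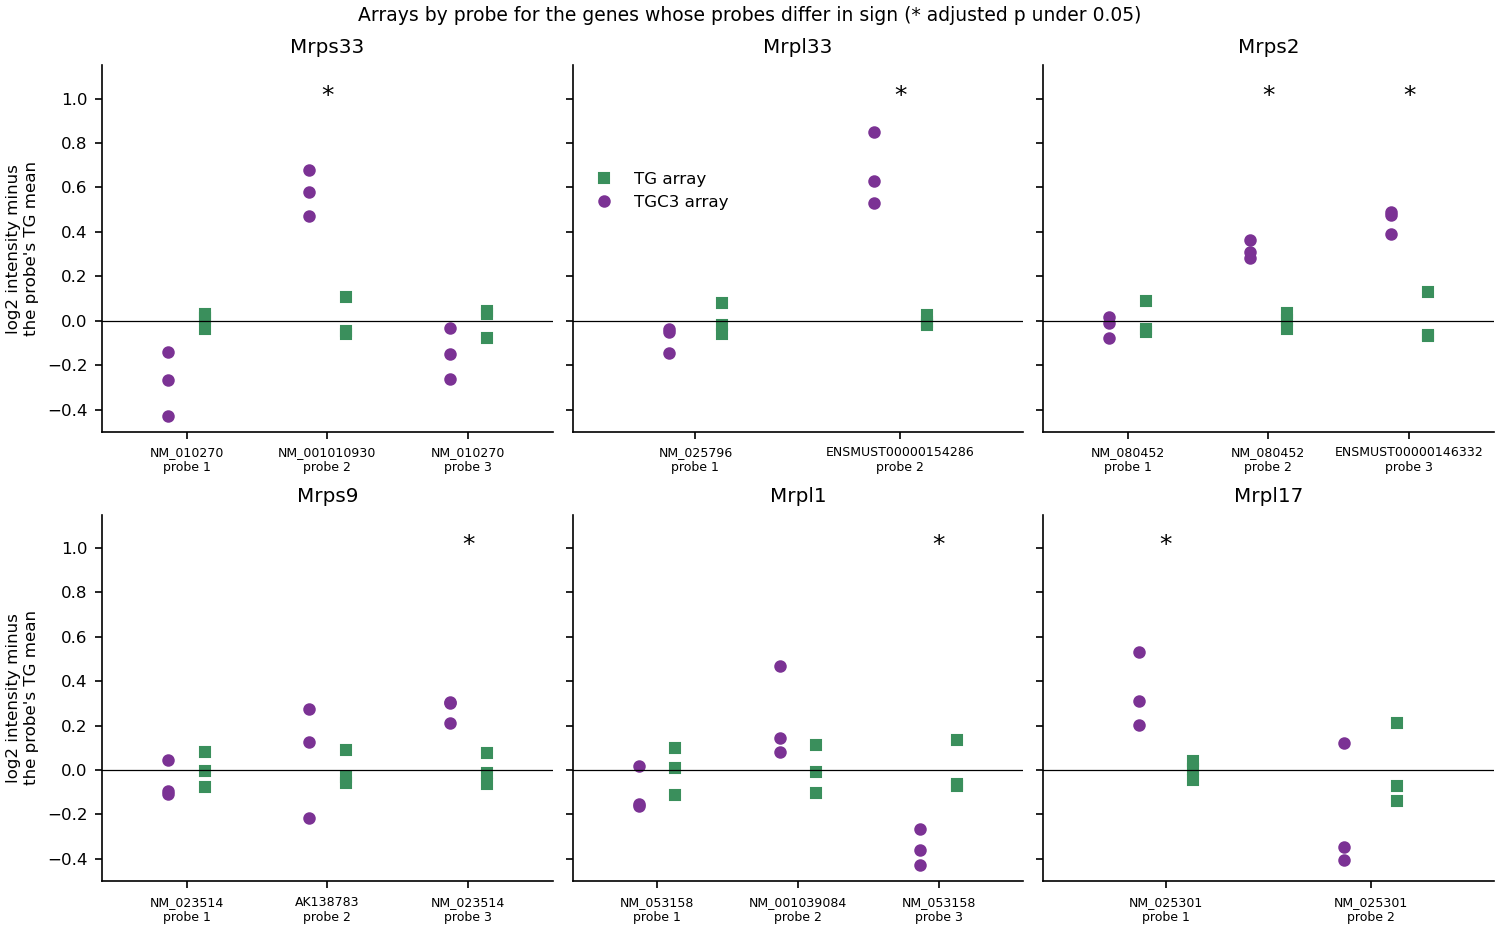
Each kept probe of Mrps33, Mrpl33, Mrps2, Mrps9, Mrpl1 and Mrpl17, with the scaled log2 intensity of each array minus the mean of the 3 TG arrays of that probe; circles are TGC3 arrays, squares TG arrays, and probe 1 is the brightest probe. Stars mark probes with an adjusted p under 0.05, such as the NM_001010930 probe of Mrps33 at 0.58 beside -0.28 and -0.15 for its other probes.

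The other genes of mitochondrial translation had mostly small changes as well, and their lower calls are to be read against 9.45% of all genes and 11.9% of the brighter genes. Of 8 further genes, for mitochondrial ribosome proteins outside the name rule and for Oxa1l, an inner membrane insertase that docks to the ribosome, 1 was called lower, Gadd45gip1, a large subunit protein, at -0.24 (SE 0.07, limma adjusted p = 0.0462). Of 34 assembly factors, 3 were called lower, among them the ribosomal RNA methyltransferase Nsun4 at -0.43 and the assembly factors Rbfa and Noa1 both at -0.31, and 1 higher, Trub2, a pseudouridine synthase, at 0.26. A list of 27 measured genes held translation factors and also genes for the making and modification of mitochondrial tRNA. Of these 27, 3 were called lower and 0 higher. The lower calls were Tufm, the mitochondrial elongation factor that brings aminoacyl-tRNA, at -0.33 (SE 0.05, limma adjusted p = 0.00934), the initiation factor Mtif3 at -0.25 and the recycling factor Mrrf at -0.22. Cdk5rap1, one of the tRNA genes of that list and singled out for its values, had its largest change, 1.30 (SE 0.38, limma adjusted p = 0.0512), just outside the threshold. The medians of these lists were -0.10, -0.07 and -0.11, and 12.5%, 11.8% and 11.1% of their genes were called in either direction, against 26.0% of all genes and 19.3% of the brighter genes. Of 19 tRNA synthetases of mitochondria, 2 were called higher, among them Gars at 0.36, and 2 lower, Hars2 at -0.30 and Aars2 at -0.26, with a median of -0.03. The calls made up 21.1% of the synthetases, above the 19.3% of the brighter genes and below the 26.0% of all genes.

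The medians of neighbouring systems were also near 0, but single genes ran further, from -0.74 to 0.65 among the cytosolic ribosomal protein genes. Of 79 measured cytosolic ribosomal protein genes 7 were called lower (8.86%) and 1 higher (1.27%), with a median of -0.08, so that the lower share is near the 9.45% of all genes and the higher share below their 16.6%. Of 74 respiratory chain and ATP synthase subunits, 3 were called lower, Atp5e at -0.32, Cyc1 at -0.28 and Ndufs6 at -0.25, and 1 higher, Cox7c at 0.49, with a median of -0.09. Of 35 import genes 3 were called lower and 1 higher, with a median of -0.06. Of 19 genes for the upkeep and transcription of mitochondrial DNA, 3 were called higher, among them Tfam, which packages mitochondrial DNA and starts its transcription, at 0.44 (SE 0.07, limma adjusted p = 0.00836), and 1 lower, Dguok at -0.30. Of 11 regulators of mitochondrial biogenesis, Pprc1, a coactivator related to PGC-1α, at -0.43 and Max, the partner of MYC, at -0.36 were called lower, and Myc stood at -0.19 (SE 0.08, limma adjusted p = 0.126). In either direction 5.41% of the respiratory chain list, 11.4% of the import list, 21.1% of the mitochondrial DNA list and 18.2% of the regulators were called. Each lies below the 26.0% of all genes, but the mitochondrial DNA list lies above the 19.3% of the brighter genes. Called higher were 15.8% of the mitochondrial DNA list, against 16.6% of all genes and 7.33% of the brighter genes.

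Proliferation genes were measured on the same arrays as a contrast. Of 30, 24 were called higher and 0 lower, with a median of 0.90, and Mki67, a marker of dividing cells, rose by 1.07 (SE 0.20, 2.09-fold, limma adjusted p = 0.0149). Thus 24 of 30 proliferation genes and 1 of 76 mitochondrial ribosomal protein genes were called higher in TGC3, against 16.6% of all genes. The difference between these lists was not tested.

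**Figure D4:**
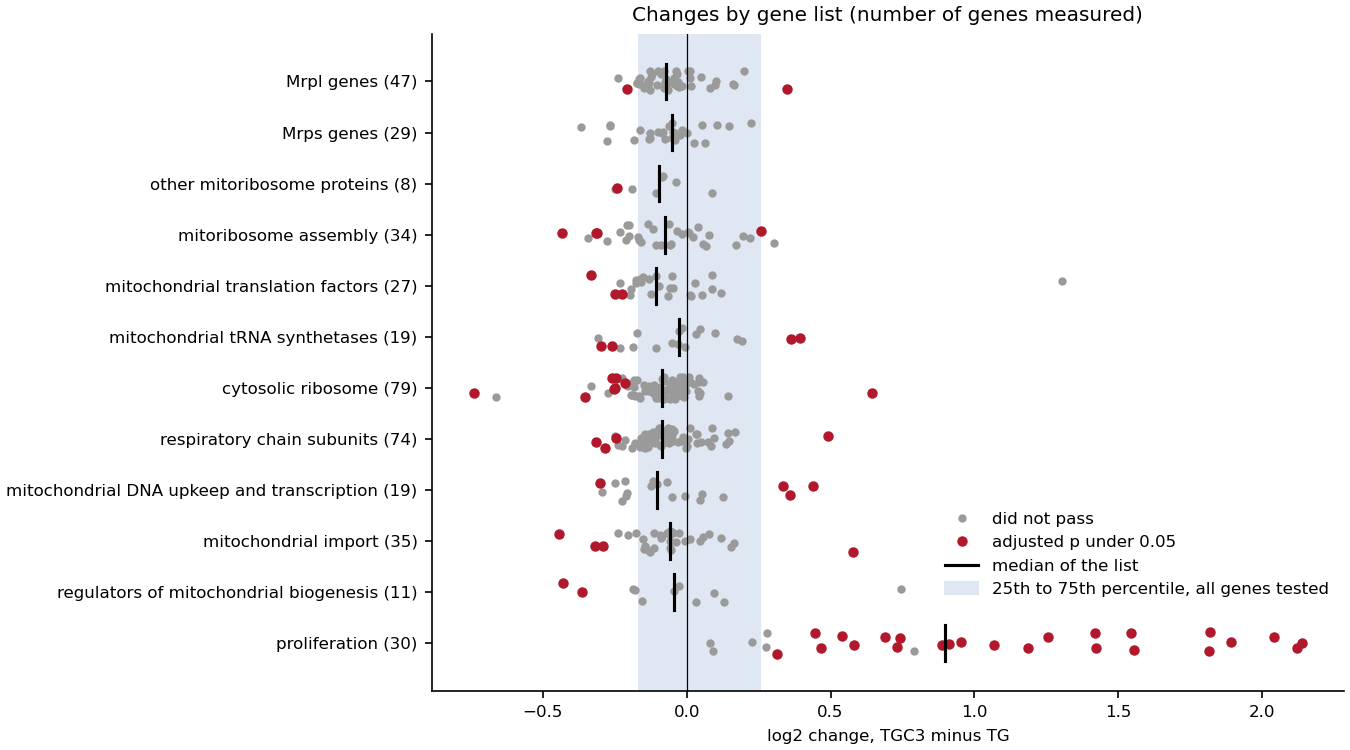
Log2 change, TGC3 minus TG, of the genes of each list, with called genes in red, the list's median as a black bar and the span from the 25th to the 75th percentile of all genes tested shaded. The Mrpl and Mrps genes lie between -0.37 and 0.35 with medians of -0.07 and -0.05, and the proliferation genes have a median of 0.90. The list labelled mitochondrial translation factors also holds genes for the making and modification of mitochondrial tRNA.

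Genes with each promoter motif did not stand far from those without it. The median change was -0.04 for the 7 genes with the NRF1 motif against -0.08 for those matched without it, and -0.03 against -0.08 for the ETS motif. For the YY1 motif the medians were -0.02 and -0.07, and for the E-box -0.08 and -0.06. Mrpl17, the only gene called higher, held the NRF1 motif, and Mrpl49 held none of the 4.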

How the data were processed

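Cells were compared on 6 one-colour Agilent arrays, 3 a group, grouped by the labels' genotype. Per the file headers, the deposited intensity values (gProcessedSignal) are background-subtracted by Agilent Feature Extraction 10.7.3.1, with probe positions on mm9; the submitters' processing notes name 10.7.1.1. The authors' deposited normalized values are on a log2 scale and served only as an alternative. Their method is not given in the sources used here, but their sorted values differ by at most 0.0066 between arrays, as after quantile normalization, so they nearly repeat that alternative. Control spots and outlier flags were left out, spots of a probe averaged, and each array's 75th percentile subtracted from its log2 intensity. Kept probes stood well above background on 3 or more of the 6 arrays, and the brightest of them represents a gene. limma 3.58.1 (R 4.3.3) fitted TGC3 against TG, two-sided, with Benjamini-Hochberg adjustment over all 16389 genes, or all 25103 probes, and a threshold of 0.05. The number of arrays limits the precision. The script was tested on simulated data, where 34 of 67 genes changed 1.5-fold and 48 of 67 changed 2-fold were found. Names followed RefSeq accessions or symbols where they matched. Members and lists were chosen with earlier results of these data known. Genes named are those called, 10 fixed landmarks, those whose probes differ in the sign of a called change, the 3 largest calls of other lists, and Cxcr3, Mki67 and Myc; others are said to be chosen on their values. Motifs are exact matches. Deviations from the group means correlated at -0.003, -0.077 and -0.099 for same-numbered arrays and from -0.015 to 0.103 for the others. That gave no sign of pairing, but with 3 arrays a group it cannot settle whether the samples were paired. The values of some genes of other lists are not reported here.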

Additional observations from a re-analysis of the deposited data

How the results depend on the processing

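Over the 76 genes, 1 called higher and 1 lower became 2 and 0 with quantile normalization or deposited values, 0 and 25 with median centring, 0 and 0 with normexp (0 at an unadjusted p under 0.05) or without the filter on dim probes (7), 1 and 3 with normexp after replacing aberrant spot backgrounds, 2 and 1 with the mean of a gene's probes, and 1 and 5 with a trended robust variance, with array weights or among the genes above the median signal. The replicate number as a block gave 0 and 0 by limma, with 6 at an unadjusted p under 0.05, and whether the numbers pair the samples is not known. Leaving out each array gave 0 to 1 higher and 0 to 3 lower, medians from -0.0985 to -0.0257, and large minus small from -0.0174 to 0.0087. The median of the 76 was -0.0003 with quantile normalization, 0.0004 with deposited values, -0.2388 with median centring and 0.2764 with normexp. The large subunit's median was 0.0008, 0.0024, -0.2456 and 0.3025 under the same settings, and the small subunit's -0.2275 and 0.2583 under the last 2. Large minus small was 0.0021, 0.0031 and 0.0442 under quantile, deposited and normexp values, 0.0066 with repaired normexp, -0.0273 with averaged probes and -0.0002 by structure. Mrpl49 turned to 0.3186 with normexp and 0.0224 with repaired normexp; with averaged probes Mrpl33 turned to 0.2965 and Mrps2 to 0.2483. The cause of these shifts was not tested. Under plain normexp 0.0061% of all genes were called lower and 0 higher. Each group lies on its own slide, so no slide block could be fitted, and at 3 arrays a group the smallest change that could pass had a median of 1.195-fold over the 76 genes.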
